A study of Caenorhabditis elegans with 4 samples.

Results

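The Hedgehog-related and patched-related genes of Caenorhabditis elegans were examined in RNA from intact animals of the wild-type strain N2, aged to day 8 of adulthood with rifampicin (RIF) or with DMSO, its solvent, alone. They were taken by gene symbol: the warthog (wrt), groundhog (grd) and ground-like (grl) genes with qua-1 and hog-1, which encode Hedgehog-related secreted proteins, and the patched (ptc) and patched-related (ptr) genes, which encode membrane proteins of the family of the Hedgehog receptor. Where several probe sets name a gene alone, the brightest of them over the 4 arrays stands for it, which gave 80 genes of the 17118 measured: 54 Hedgehog-related genes (10 wrt, 12 grd and 30 grl genes, qua-1 and hog-1) and 26 genes of the receptor family (ptc-1, ptc-3 and 24 ptr genes). A further 8 genes of these names, grd-4, grd-6, grd-13, grd-15, grd-17, grl-26, grl-32 and ptc-2, have no probe set of their own in the table used and were not analysed here. There were 2 arrays of RIF-treated worms and 2 arrays of DMSO-treated worms, labelled as biological replicates. Worms of both groups were grown from young adulthood in liquid culture on heat-killed E. coli OP50-AMP with carbenicillin, amphotericin B and FuDr, which blocks reproduction, with a further feeding on day 5. The labels of the arrays give no dose of RIF, and a field that names a control RNAi and an idr-1 RNAi was not used, since the titles and the study design give DMSO and RIF. RNA came from whole animals, so fewer cells of a type and less RNA per cell cannot be told apart.

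In flies and vertebrates, the secreted protein Hedgehog binds Patched, which relieves the inhibition of Smoothened and so changes the activity of GLI transcription factors. C. elegans has no true Hedgehog and no Smoothened. It has instead a large set of genes whose products carry a Wart, Ground or Ground-like domain, some of them joined to the self-cleaving Hog domain of Hedgehog, and an expanded set of patched-like proteins with a sterol-sensing domain. In the worm these genes are known for roles in moulting, in the apical extracellular matrix, in epidermal and glial cells and in osmoregulation, and much of their expression follows the larval moulting cycle.

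The values are log2 expression per probe set as deposited, and a difference of 1 is 2-fold. Transcripts of yeast and bacteria, which the worm lacks, are covered by 8 control probe sets, and these read 0.44 to 1.62, taken here as the range of absent transcripts, or background. Medians over all probe sets were 1.90 and 1.85 on the RIF arrays and 1.82 and 1.82 on the DMSO arrays. DMSO replicate 2 stood apart in RNA quality: over 8 control transcripts, the median of the 5′ minus 3′ difference, which drops as RNA degrades, was -1.28 and -1.25 on the RIF arrays and -0.99 and -2.16 on the DMSO arrays. Values without that array are therefore given for some of the genes below, and of the marker lists only for unc-54. The part of RNA quality in the results was not tested.

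Most of these genes were read at background in the old worms. The mean over the 4 arrays was above the range of absent transcripts for 26 of the 80 (32.5%) and for 55.1% of all genes. The 26 were 3 wrt genes (wrt-2, wrt-5 and wrt-10), 4 grd genes (grd-3, grd-5, grd-10 and grd-14), 9 grl genes (grl-4, grl-5, grl-8, grl-9, grl-10, grl-15, grl-16, grl-21 and grl-27), ptc-1 and ptc-3, and 8 ptr genes (ptr-2, ptr-8, ptr-12, ptr-14, ptr-20, ptr-22, ptr-23 and ptr-24). The other 54 read 0.45 to 1.73 on the RIF arrays and 0.50 to 2.08 on the DMSO arrays. Both qua-1 and hog-1 were among these 54.

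Little change with RIF treatment was detected in the family. At the threshold of the study, which asks for a change of 2-fold or more and p under 0.05 before adjustment, here from limma, 0 of the 80 genes were upregulated and 1, grd-14, was downregulated (1.25%), where 1.27% of all genes were upregulated and 1.55% were downregulated. No member passed an adjusted p under 0.05, against 0.0234% of all genes. At an unadjusted p under 0.05 alone, 0 members were higher and 3 were lower (grd-14, grd-5 and ptr-2), against 4.39% and 4.46% of all genes. The median log2 difference, RIF minus DMSO, was 0.00 for the 80 members and 0.03 for all genes, with 41 members above 0 and 39 below. Both RIF arrays lay above both DMSO arrays for 15 members (18.8%) and below them for 14 (17.5%), against 22.9% and 16% of all genes. Of these shares, only the last was above that of all genes, and by little. For the 26 members above background, 0 were upregulated and 1 was downregulated (3.85%), against 2.31% and 2.78% of all genes above background. At the unadjusted p, 0 were higher and 3 lower (11.5%), against 6.91% and 7.75%. Without overlap, 4 lay above (15.4%) and 7 below (26.9%), against 21.4% and 21.7%. At the adjusted p there were 0, against 0.0424%. Among these 26, the shares on the lower side were above those of all genes above background, but they rest on 1, 3 and 7 genes.

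**Figure D1:**
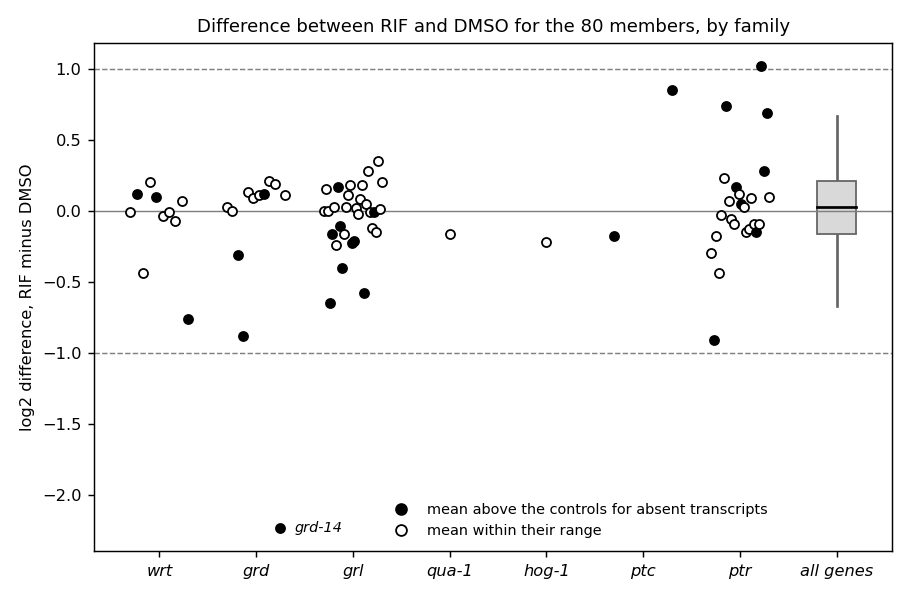
Log2 difference, RIF minus DMSO, of each of the 80 genes (points, in order of gene number within each family) and of all 17118 genes (box, quartiles with the median; line, 5th to 95th percentile). Dashed lines mark a 2-fold difference. grd-14, at -2.23, is the one gene below the lower line, and ptr-22, at 1.02, lies at the upper line without passing the test.

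The spread between arrays of 1 group sets what could be seen. For 65 of the 80 genes, the gap between the replicates of RIF or of DMSO was larger than the difference between the group means. The same held for 12551 of all 17118 genes. The median half-width of the 95% confidence interval of the difference was 0.84 on the log2 scale for the 26 genes above background and 0.45 for the 54 others, whose values near background leave little room for a fall to show. The interval lay wholly within a 2-fold change in either direction for 10 of the 26, and for the other 16 a 2-fold change was not excluded at this precision. Of the 9431 genes above background in the whole table, 4505 had such an interval within 2-fold. Of the 80 genes, the DMSO arrays differed from each other by more than 1 for 9 genes (11.2%, against 6.71% of all genes). These 9 were all among the 26 above background (34.6%, against 11.9% of all genes above background). The RIF arrays differed by more than 1 for 2 of the 80 genes, against 567 of all 17118.

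Among the groundhog genes, which carry the Ground domain, grd-14 fell. It read 2.27 and 2.16 on the RIF arrays, against 4.97 and 3.92 on the DMSO arrays. The RIF arrays lay close together and far below both DMSO arrays, which were themselves 1.04 apart. The means were 2.22 ± 0.07 with RIF and 4.45 ± 0.74 with DMSO (SD, n = 2 each). This was a 4.69-fold fall (log2 difference -2.23, standard error 0.39, 95% confidence interval -3.30 to -1.16, unadjusted p = 0.00425 and adjusted p = 0.399 from limma). The difference was -2.75 without DMSO replicate 2 and -1.71 without DMSO replicate 1, with the call kept in all 4 fits that left out an array. The methods' t-test, which estimates the spread from the gene alone, did not call it. The probe set of grd-14 has no ending that marks shared probes. Of the members above background, wrt-2, wrt-5, wrt-10, grl-4, grl-5, grl-9, grl-16, ptc-3, ptr-2, ptr-8, ptr-14, ptr-23 and ptr-24 are read by probe sets with such an ending. Whether their values include signal from other genes was not tested. In the RefSeq order of protein-coding genes (WBcel235), grd-14 is next to grd-4, 1 of the genes without a probe set of its own here.

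A second groundhog gene, grd-5, read 1.39 and 1.04 on the RIF arrays, against 1.83 and 2.37 on the DMSO arrays. Both RIF values fell within the range of absent transcripts and both DMSO values just above it. Its log2 difference of -0.88 (standard error 0.26, unadjusted p = 0.0267, adjusted p = 0.534 from limma) did not reach 2-fold. It was -0.62 without DMSO replicate 2 and -1.15, past the threshold, without DMSO replicate 1. The groups overlapped for grd-10, whose promoter is in common use as a marker of the seam, the lateral epidermal cells, with 2.44 and 1.71 on the RIF arrays and 1.72 and 2.20 on the DMSO arrays. They met at one value for grd-3, with 1.67 and 1.81 on the RIF arrays and 1.81 and 2.28 on the DMSO arrays. The log2 differences were 0.12 for grd-10 and -0.31 for grd-3. The 8 grd genes at background had differences of 0.00 to 0.21.

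The ground-like genes make up the largest family, and none of the 30 passed the test. For 8 of the 9 above background the value was lower with RIF, by 0.01 to 0.65 on the log2 scale, and it was 0.17 higher for grl-8. Of all 9431 genes above background, 4826 were lower with RIF. Without DMSO replicate 2, grl-5, grl-15, grl-21 and grl-27 were also higher with RIF (0.07, 0.30, 0.03 and 0.08). With all arrays, the largest difference among the 9 was that of grl-4 (log2 difference -0.65, standard error 0.31, adjusted p = 0.661 from limma). It read 2.79 and 2.0 on the RIF arrays and 3.12 and 2.97 on the DMSO arrays. The groups of grl-4 did not overlap, and the difference was -1.04 and past the threshold without RIF replicate 1 and -0.25 without RIF replicate 2. For grl-10, with 1.64 and 1.27 on the RIF arrays and 1.88 and 1.83 on the DMSO arrays, the difference was -0.40 (adjusted p = 0.655 from limma).

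The other ground-like genes differed less or spread more. For grl-21, which is known to act with ptr-24 in the control of fat storage by bacterial metabolites, the arrays read 2.59 and 1.90 with RIF and 2.21 and 3.43 with DMSO, so that the groups overlapped. Its difference of -0.58 was 0.03 without DMSO replicate 2. All 4 arrays lay close together for grl-27, with 2.91 and 2.82 on the RIF arrays and 2.78 and 2.97 on the DMSO arrays (log2 difference -0.01, 95% confidence interval -0.44 to 0.41), and for grl-9, with 2.99 and 2.97 on the RIF arrays and 3.20 and 2.99 on the DMSO arrays (-0.11, -0.54 to 0.31). For grl-16, the RIF arrays read 2.51 and 2.63 and the DMSO arrays 2.73 and 2.83 (-0.21, -0.61 to 0.19). In these 3 genes a 2-fold change in either direction lies outside the interval. For grl-15, with 2.94 and 2.57 on the RIF arrays and 2.45 and 3.52 on the DMSO arrays, the groups overlapped.

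None of the 10 warthog genes passed the test. The secreted protein of wrt-5 is known from the lumen of the pharynx, and the promoter of wrt-2 is used to mark the epidermis. The arrays read 4.51 and 4.19 for wrt-5 with RIF, against 4.20 and 4.31 with DMSO (log2 difference 0.10, 95% confidence interval -0.40 to 0.59). For wrt-2 they read 2.51 and 2.27 with RIF, against 2.24 and 2.31 with DMSO (0.12, -0.33 to 0.56). The groups overlapped in both genes, and both differences turned negative with the arrays centred on ribosomal protein genes (-0.04 for wrt-2 and -0.06 for wrt-5). The third gene, wrt-10, spread over a wider range, with 3.78 and 4.82 on the RIF arrays and 4.52 and 5.60 on the DMSO arrays. Its difference of -0.76 (standard error 0.54, adjusted p = 0.763 from limma) was smaller than the gap within either group and was -0.22 without DMSO replicate 2. In the genome wrt-10 lies next to wrt-1, which was at background with a difference of -0.01. Of the 7 wrt genes at background, wrt-3 (-0.44) and wrt-4 (0.20) had the largest differences among those whose groups did not overlap.

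qua-1, which encodes a Hog domain protein needed for moulting, read 1.14 and 1.11 on the RIF arrays and 1.11 and 1.45 on the DMSO arrays. hog-1, whose product has a Hog domain without a known partner domain, read 0.89 and 0.71 on the RIF arrays and 0.83 and 1.21 on the DMSO arrays. All 8 values lay within the range of absent transcripts, and no difference could be measured for either gene at this level.

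**Figure D2:**
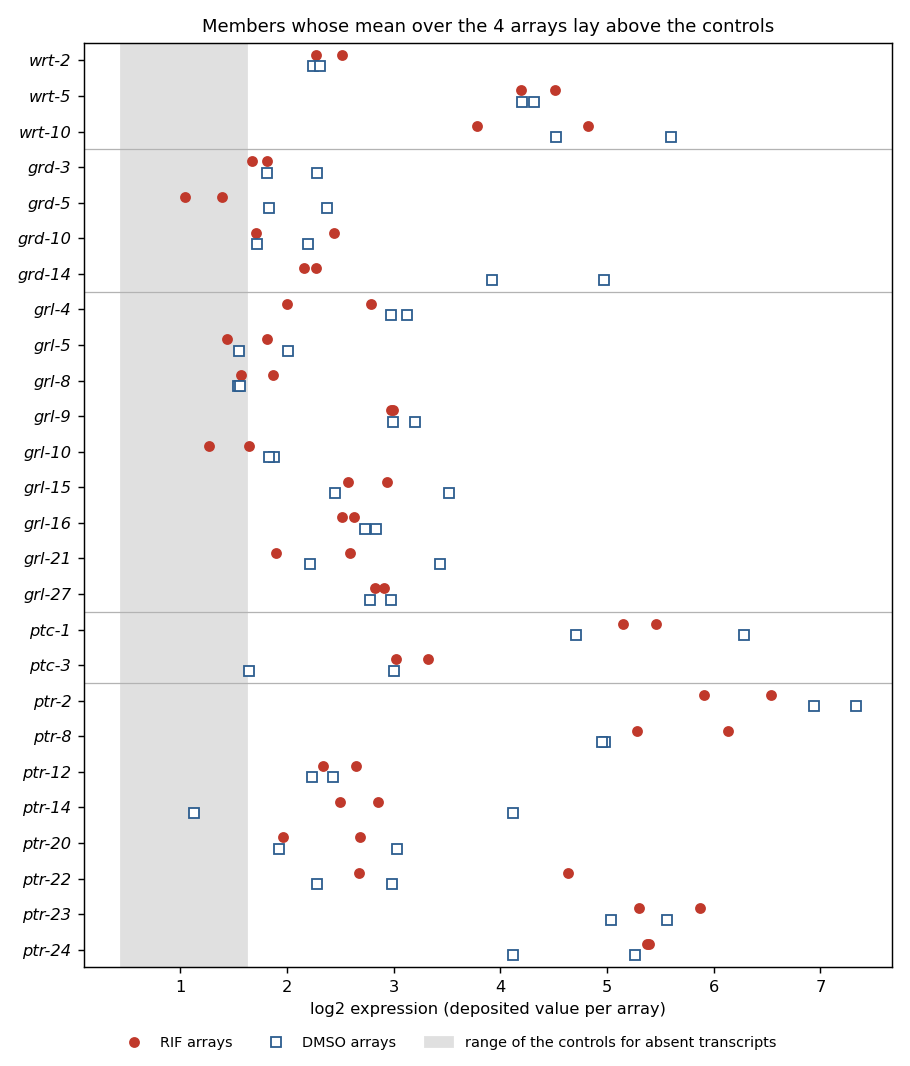
Deposited log2 expression of the 26 genes whose mean over the 4 arrays was above 1.62, on each RIF array (filled circles) and each DMSO array (open squares), with genes grouped by family. The grey band is the range of the control probe sets for absent transcripts, 0.44 to 1.62. The arrays of a group are often as far apart as the groups, with grd-14 the clearest exception and ptr-14 the widest spread, 1.13 to 4.12 within DMSO.

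Of the patched genes, ptc-1 is required for the division of germ cells and ptc-3 is an essential gene with a role in osmoregulation. ptc-1 read 5.15 and 5.46 on the RIF arrays, between the values of 4.71 and 6.28 on the DMSO arrays (log2 difference -0.18, 95% confidence interval -1.76 to 1.39). The difference was 0.60 without DMSO replicate 2 and -0.97 without DMSO replicate 1, so its direction rested on which DMSO array was used. A second probe set of ptc-1 gave -0.03. ptc-3 read 3.32 and 3.02 on the RIF arrays, against 3.0 and 1.64 on the DMSO arrays (log2 difference 0.85, standard error 0.50, adjusted p = 0.703 from limma). Only DMSO replicate 2 was far from the RIF values, and without it the difference was 0.17, whereas without DMSO replicate 1 it was 1.53 and past the threshold.

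None of the 24 patched-related genes passed the test. ptr-2, for which 2 further probe sets gave -0.55 and 0.14, read 5.91 and 6.54 on the RIF arrays, against 7.33 and 6.94 on the DMSO arrays (log2 difference -0.91, standard error 0.29, unadjusted p = 0.0335, adjusted p = 0.554 from limma). Both RIF arrays were below both DMSO arrays, the difference fell short of 2-fold, and it was -1.10 without DMSO replicate 2 and -1.22 and past the threshold without RIF replicate 2. The probe set with 0.14 is the one without shared probes and reads at background. ptr-8 was on the opposite side, with 5.28 and 6.13 on the RIF arrays against 4.98 and 4.95 on the DMSO arrays. Its log2 difference was 0.74 (standard error 0.33, adjusted p = 0.646 from limma), 0.72 without DMSO replicate 2, 0.32 without RIF replicate 2 and 1.17, past the threshold, without RIF replicate 1.

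Single arrays decided the values of 3 other ptr genes, which are named here for their values. ptr-24, the partner of grl-21, read 5.39 and 5.37 on the RIF arrays, against 5.26 and 4.12 on the DMSO arrays, and its difference of 0.69 was 0.12 without DMSO replicate 2 and 1.26, past the threshold, without DMSO replicate 1. ptr-14 read 2.50 and 2.85 on the RIF arrays, between the values of 4.12 and 1.13 on the DMSO arrays, the widest gap of all members. Its difference was 0.05 with all arrays, -1.44 without DMSO replicate 2 and 1.55 without DMSO replicate 1, past the threshold in opposite directions. ptr-22 read 4.63 and 2.67 on the RIF arrays, against 2.28 and 2.98 on the DMSO arrays, and its difference of 1.02 (standard error 0.74, adjusted p = 0.765 from limma) was 0.04 without RIF replicate 1 and 1.99, past the threshold, without RIF replicate 2. ptr-23, which is known from the osmotic stress response, read 5.30 and 5.87 on the RIF arrays and 5.04 and 5.56 on the DMSO arrays. The groups overlapped (log2 difference 0.28). Further probe sets of ptr-23 gave -0.35, 0.12 and 0.27, and the difference averaged over all its probe sets was 0.08. ptr-10, whose promoter marks glia that ensheathe sense organs, was among the 16 ptr genes at background, which had differences of -0.44 to 0.23.

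**Figure D3:**
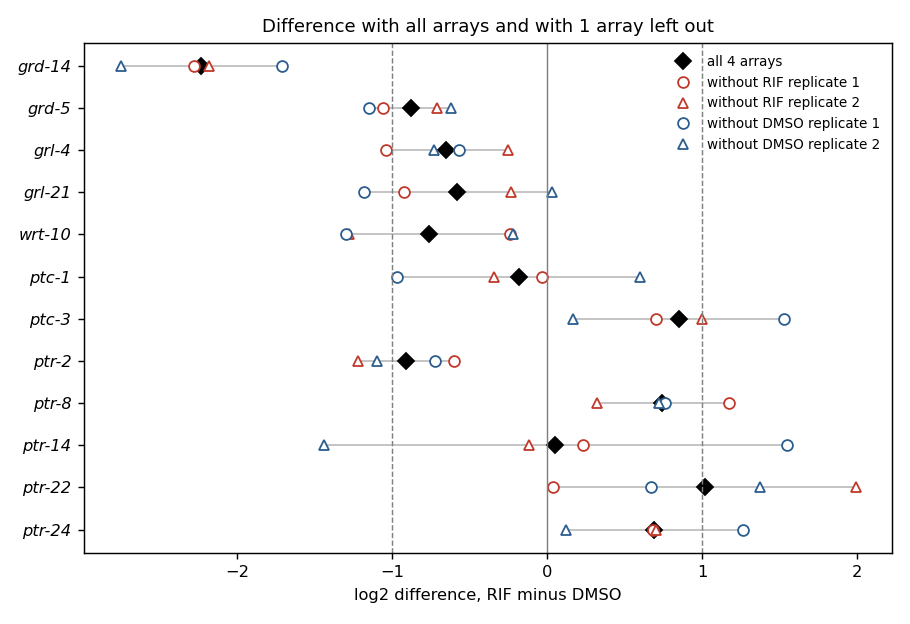
Log2 difference, RIF minus DMSO, of 12 genes with all 4 arrays (black diamonds) and with each array left out (red, a RIF array; blue, a DMSO array; circles, replicate 1; triangles, replicate 2). Dashed lines mark a 2-fold difference. All 5 values of grd-14 lie below -1.71 or at it, whereas those of ptc-1, ptr-14 and grl-21 lie on both sides of 0.

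By role, 12 of the 16 Hedgehog-related genes above background had a value below 0 (median -0.22), and 7 of the 10 genes of the receptor family a value above 0 (median 0.22). Of the 9431 genes above background in the whole table, 4826 had a value below 0, and the median was -0.01. Without DMSO replicate 2, grl-5, grl-15, grl-21 and grl-27 turned positive (0.07, 0.30, 0.03 and 0.08), and the rest of the 16 kept their sign. In the receptor family, ptc-1 turned positive (0.60) and ptr-14 negative (-1.44) without that array, and the rest of the 10 kept their sign. The difference between the Hedgehog-related and the patched-related genes was not tested, and over all 54 and 26 members the medians were 0.00 and 0.00.

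Other genes of the pathway, listed from general knowledge, did not pass the threshold either with all arrays and the brightest probe sets. Of 17 listed, 16 were measured, with a median log2 difference of 0.07, and at an unadjusted p under 0.05 alone in limma 2 were higher (kin-2 and gsk-3) and 1 was lower (scp-1), against 4.39% and 4.46% of all genes. Among the proteins with a patched-like or sterol-sensing domain, che-14, the relative of Dispatched, which releases Hedgehog in flies, read 1.64 and 1.48 on the RIF arrays and 1.74 and 2.0 on the DMSO arrays (-0.31). The cholesterol transporters ncr-1 and ncr-2, relatives of the human NPC1 protein, had differences of 0.34 and 0.50. Both RIF arrays lay above both DMSO arrays for ncr-2, whose mean was at background. daf-6, which shapes the channel of glia around sensory endings, and ptd-2 were at background (-0.02 and 0.48). The lowest difference in this list was that of scp-1, the relative of the SREBP-cleavage activating protein, with 3.72 and 3.37 on the RIF arrays and 4.47 and 4.26 on the DMSO arrays (log2 difference -0.82, standard error 0.20, adjusted p = 0.495 from limma). With only probe sets free of shared probes, scp-1 had a difference of -1.04, past the threshold.

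On the intracellular side, tra-1, the GLI factor of the worm, which sets sexual fate, read 5.31 and 4.82 on the RIF arrays, against 4.66 and 4.70 on the DMSO arrays (0.39, adjusted p = 0.691 from limma). In flies, protein kinase A, GSK3 and casein kinase 1 act on the GLI factor. The log2 difference was 0.11, with overlapping groups, for kin-1, the catalytic subunit of protein kinase A, and 0.62 for kin-2, its regulatory subunit. It was 0.48 for gsk-3, at background, and 0.95 for kin-19, a casein kinase 1 (0.46 without DMSO replicate 2 and 1.43, past the threshold, without DMSO replicate 1). None reached the threshold with all arrays, and kin-1, kin-2, gsk-3, kin-19 and scp-1 are named here for their values. Averaged over the probe sets of each gene, the differences were 0.43 for kin-2, 0.17 for gsk-3 and 0.46 for kin-19. None of these had an unadjusted p under 0.05 in limma. lrp-1, the relative of megalin, which the worm needs to moult, had a difference of 0.04. It was -0.02 with the arrays centred on their medians and 0.38 averaged over its probe sets.

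None of the 23 moulting genes rose or fell at the threshold, and 0 had an unadjusted p under 0.05 in limma. nhr-23, the nuclear receptor that drives the moulting programme, read 1.95 and 3.12 on the RIF arrays and 2.72 and 3.44 on the DMSO arrays, and nhr-25, another receptor needed for moulting, read 3.45 and 4.18 on the RIF arrays and 3.34 and 3.61 on the DMSO arrays. The groups overlapped in both genes (log2 differences -0.54 and 0.34). The median of the list was -0.06.

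Markers of some tissues differed between the groups. The share of all genes called lower, for comparison with the counts that follow, was 1.55%, and 2.78% of those above background. The epidermis is a known site of expression of many Hedgehog-related genes. Of the 10 epidermal markers measured, 1 fell, the adult cuticle collagen col-19 (log2 difference -3.77), and the log2 of their summed level was 7.41 and 7.18 on the RIF arrays and 8.82 and 7.99 on the DMSO arrays. Most of that difference in the sum was col-19 itself, since the sums of the other 9 markers were 7.24 and 7.11 on the RIF arrays and 7.46 and 7.45 on the DMSO arrays. A sum mostly follows the brightest markers. Taken singly, 7 of these 9 were lower with RIF and 2 were higher, with a median log2 difference of -0.29. Of the 8 muscle markers, 5 fell, among them the myosin heavy chain unc-54 (-1.87), with sums of 7.38 and 6.99 on the RIF arrays and 9.08 and 8.77 on the DMSO arrays. Neuronal markers had a median of 0.51 and germ line markers one of -0.46, with no call in either list. The sum of the neuronal markers was 10.04 and 9.83 on the RIF arrays, against 9.48 and 9.43 on the DMSO arrays, and that of the germ line markers was 10.49 and 10.84 on the RIF arrays, against 11.32 and 10.97 on the DMSO arrays. Of 8 glial markers 1 fell, of 10 intestinal markers 1 fell, and none of the 4 seam, 8 sperm or 6 pharyngeal markers passed. At an unadjusted p under 0.05 alone in limma, 3 epidermal markers (col-19, dpy-7 and vab-10), 5 muscle, 1 glial and 1 intestinal marker were lower, 1 neuronal and 1 pharyngeal marker were higher, and 0 of the seam, sperm and germ line markers differed. Means at background were found for 1 of the epidermal, 2 of the muscle, 1 of the neuronal, 0 of the germ line, 3 of the glial, 1 of the intestinal, 6 of the sperm, 1 of the pharyngeal and 0 of the seam markers. The part of the epidermal and muscle markers in the fall of grd-14 was not tested.

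**Figure D4:**
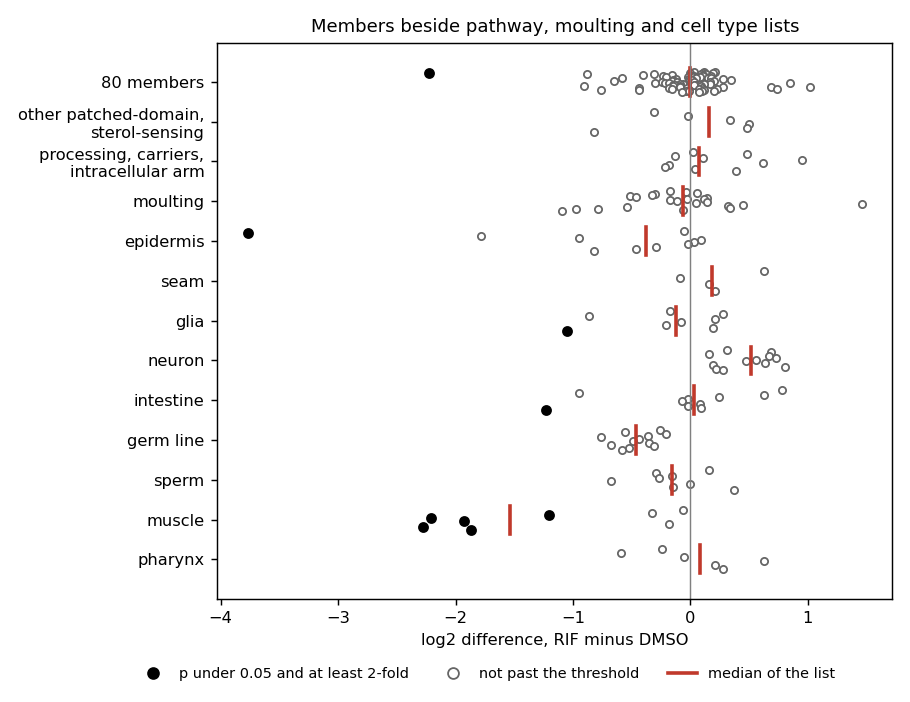
Log2 difference, RIF minus DMSO, of the 80 genes and of the genes of each list (points), with the median of each list (red bars). Filled points passed an unadjusted p under 0.05 and a 2-fold change. The 80 genes centre on 0.00 with 1 filled point, grd-14, while 5 of the 8 muscle markers are filled, on the side of lower values with RIF.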

How the data were processed

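RNA of whole worms was measured on 4 Affymetrix arrays, 2 RIF and 2 DMSO. The authors deposited 1 log2 value per probe set and array (0.211 to 11.59). More than 1 program is named for this step: Expression Console, with RMA, in the processing notes of the submitters, and GeneSpring GX in the paper's methods. Which of them made the deposited values is not settled. RMA brings the arrays to a common distribution, but the array medians still differed slightly, so other centrings were tried. Of 22625 probe sets, 77 controls were left out. The other 22548 were fitted without a level filter in limma 3.58.1 (R 4.3.3; lmFit and eBayes, 2.11 prior degrees of freedom), two-sided, RIF minus DMSO, with Benjamini-Hochberg adjustment over all of them. Of these, 20766 name 1 gene and 20701 were matched to RefSeq symbols; no member's symbol changed. A gene is above background when its mean over the 4 arrays exceeds 1.62.

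The text names every member past the study's threshold, in each family the 3 members of highest mean and the 2 largest differences among groups that do not overlap, qua-1, hog-1, the ptc genes and fixed pathway genes. Genes outside this rule, among them kin-1, dpy-7, vab-10, grl-8, grl-16, grl-21, ptr-10, ptr-20, col-19 and unc-54, were chosen after their values were seen. The members and lists were chosen with earlier results of these data known. Alternatives were the methods' t-test, a trend and robust prior, the replicate block, each array left out, other normalizations, a level filter, other probe sets and other thresholds. The fit was tested on simulated data. The number of arrays limits the precision, and p-values measure only the spread between these arrays.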

Additional observations from a re-analysis of the deposited data

How the results depend on the processing

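grd-14 was the one member called lower with all arrays, and it stayed called under every alternative run except the methods' t-test and an adjusted p under 0.05 (adjusted p = 0.399), which left 0 lower members. Leaving out 1 array gave 0 to 3 higher members and 2 lower members in each case, with a lone array taken to vary like the other group. The lower members numbered 3 (grd-14, grd-5 and ptr-2) at 1.5-fold and with the arrays centred on their ribosomal protein probe sets. The median of the members was -0.02 to 0.07 with 1 array left out and -0.06 with the arrays centred on their medians. It was -0.16 with ribosomal centring, where the median of all genes was -0.13. Over the 28 members left by a filter on level it was -0.13. That filter asked for the higher group mean, not the mean of all arrays, to be above background. grl-7 and grl-25 passed it by their DMSO means alone (1.71 and 1.65, against 1.47 and 1.53 with RIF). Their negative differences therefore came with the selection. Over the 26 members above background by the mean of all arrays, the median was also -0.13. With the replicate number as a block, 0 members were higher and 1, grd-14, was lower, and no other call changed. With this block the difference of wrt-10 (-0.76, short of 2-fold) had an unadjusted p = 0.015 in limma, against 0.231 without it. Same-numbered arrays deviated together little (r = 0.10 over all probe sets, -0.08 over the members). These correlations cannot settle whether such arrays shared a culture or a batch, since the titles give only replicate numbers.

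Of the 80 members, only 37 kept the same sign in all 4 fits that left out an array. Among the genes named in the text, some differences changed sign. With 1 array left out the ranges were -0.24 to 0.20 for daf-6, -0.25 to 0.48 for grd-10, -0.76 to 0.30 for grl-15, -1.18 to 0.03 for grl-21, -0.11 to 0.08 for grl-27, -0.13 to 0.21 for lrp-1, -1.13 to 0.04 for nhr-23, -0.03 to 0.70 for nhr-25, -0.97 to 0.60 for ptc-1, -1.44 to 1.55 for ptr-14, -0.71 to 0.41 for ptr-20, -0.33 to 0.01 for qua-1 and -0.07 to 0.26 for wrt-5. Ribosomal centring gave -0.04 for grd-10, -0.12 for lrp-1, -0.11 for ptr-14, -0.04 for wrt-2 and -0.06 for wrt-5, and median centring -0.02 for lrp-1 and -0.01 for ptr-14. With probe sets free of shared probes only, ptr-2 read 0.14. The calls of col-19 and unc-54 were both lost under the methods' t-test and at an adjusted p under 0.05 (adjusted p = 0.489 and 0.531). That of col-19 was also lost without RIF replicate 2 (-3.01), and that of unc-54 without RIF replicate 2 (-1.22), DMSO replicate 1 (-1.50) or DMSO replicate 2 (-2.24). Of the 5 muscle markers that fell, unc-54 had the highest unadjusted p (0.0244 in limma with all arrays). Values under the alternatives are not given for the other markers. The causes were not tested.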

Other observations

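A pair of probe sets that name several genes, and so were not used above, include family members. The one that names ptc-1 and ptc-2 together read 1.06 and 1.42 on the RIF arrays, against 2.36 and 1.49 on the DMSO arrays (log2 difference -0.68, 95% confidence interval -1.66 to 0.30). The one that names grl-32 with T24A6.1 and T07F10.5 read 4.43 and 4.56 on the RIF arrays, against 3.86 and 4.13 on the DMSO arrays (0.50, 0.03 to 0.97, adjusted p = 0.570 from limma). Which of the named genes these values come from cannot be told apart.

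Some genes of the families lie side by side in the genome. Among protein-coding genes in RefSeq order (WBcel235), the neighbours are wrt-1 with wrt-10, grd-13 with grd-3 and grd-10, grl-29 with grl-30 and grl-31, grl-8 with grl-9, and grd-14 with grd-4. The log2 differences were 0.17 for grl-8 and -0.11 for grl-9, and 0.35, 0.01 and 0.20 for grl-29, grl-30 and grl-31, the last 3 at background.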
